A study of Oryza sativa with 16 samples.

Results

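Storage protein transcripts of the rice seed were followed through the glutelin gene GLUB-5 and the seed albumin genes RA14 and RA17, which are 3 of the 17905 genes with a probe set of their own on the Affymetrix rice genome array. The 3 genes were chosen with their values over the 8 conditions in view, so that their levels and differences are given as a description. Counts of their probe sets called are printed as well. Because of that choice, nothing is read from those counts in any comparison. GLUB-5 (LOC4328968) had 1 probe set, RA14 (LOC4342723) had 4 and RA17 (LOC4342722) had 2, and all 7 passed the filter on low values. Whole seeds came from 2 japonica cultivars, Hanfeng (HF), which tolerates low temperature, and Zhonghua 11 (ZH), which is sensitive to it. HF 4D-2DC seeds were kept at 14°C for 2 days, starting 4 days after fertilization (DAF), and HF 4D seeds were taken untreated at 4 DAF. ZH 4D-2DC seeds had the same treatment as HF 4D-2DC seeds, and ZH 10D-2DC seeds had it starting at 10 DAF. Untreated ZH seeds were taken at 4, 6, 10 and 12 DAF and are called ZH 4D, ZH 6D, ZH 10D and, for the last, ZH 12D. All plants shared 1 warmer regime of day and night temperature before treatment. For ZH the treated seeds can thus be set against untreated seeds of the same age, which are ZH 6D and ZH 12D. HF 4D-2DC and HF 4D differ in both treatment and age, and the effects of treatment and age cannot be told apart there. A legend of the study instead names untreated seeds at 6 DAF as the control in both cultivars. The labels were followed here, and a supplementary list of arrays in the study also names HF 4D and HF 4D-2DC, with no HF seeds at 6 DAF. If the HF 4D arrays did hold older seeds, HF 4D minus ZH 4D and HF 4D-2DC minus HF 4D would compare other ages than those given.

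Glutelins are the most abundant storage proteins of rice grain. They are made as precursors on the rough endoplasmic reticulum of starchy endosperm cells, folded there with the help of the chaperone BiP and protein disulfide isomerases, carried to protein storage vacuoles and cleaved by a vacuolar processing enzyme into an acidic and a basic subunit. RA14 and RA17 encode seed allergenic proteins of the albumin class, small cysteine-rich proteins of the alpha-amylase and trypsin inhibitor family that are listed in RefSeq under the synonyms RAG2 and RAG1. Both classes of transcript are known to begin to accumulate in the endosperm during early grain filling.

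Each condition had 2 arrays, 16 in all, labelled as biological replicates 1 and 2. Whether the replicates came from separate plants is not said in the labels, and the spread between them may be technical. The values are linear signals, each array scaled to the same trimmed mean of 500, and levels and differences are given as log2(signal + 16). The median of an array ranged over 85.9 to 172 in replicate 1 and over 49.8 to 60.1 in replicate 2. Its highest signal ranged over 87265 to 256785 in replicate 1 and over 35851 to 58670 in replicate 2, so that the top of the range lay higher in replicate 1. Most differences are therefore accompanied by their value in either replicate. A difference with 1 array left out sets both replicates of 1 condition against 1 array of the other. It therefore also holds the difference between replicate numbers. The seeds were bulk samples, in which fewer cells of a type and less RNA per cell cannot be told apart. The number of arrays limits the precision of every value.

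GLUB-5 was bright on every array except 1. Its signal was 55297 and 46446 on the arrays of replicate 1 and 2 of HF 4D-2DC seeds, against 10932 and 37675 in HF 4D seeds. In treated ZH seeds it was 73322 and 32801 (ZH 4D-2DC) and 185151 and 43129 (ZH 10D-2DC). In untreated ZH seeds it was 52001 and 347 at 4 DAF, 200031 and 41208 at 6 DAF, 95044 and 44394 at 10 DAF and 139365 and 39387 at 12 DAF. The low array was replicate 2 of ZH 4D, and the 7 other arrays of replicate 2 stayed between 32801 and 46446. The mean level was highest in ZH 6D (16.47 ± 1.61, SD, n = 2) and lowest in ZH 4D (12.09 ± 5.06, SD, n = 2). In the order of the 8 means, which ran ZH 6D, ZH 10D-2DC, ZH 12D, ZH 10D, HF 4D-2DC, ZH 4D-2DC, HF 4D and ZH 4D, every condition overlapped its neighbour. A probe set that GLUB-5 shares with the adjacent glutelin gene GLUB-4 and 1 other gene followed it closely over the 8 conditions (r = 0.986 in replicate 1 and 0.999 in replicate 2).

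**Figure D1:**
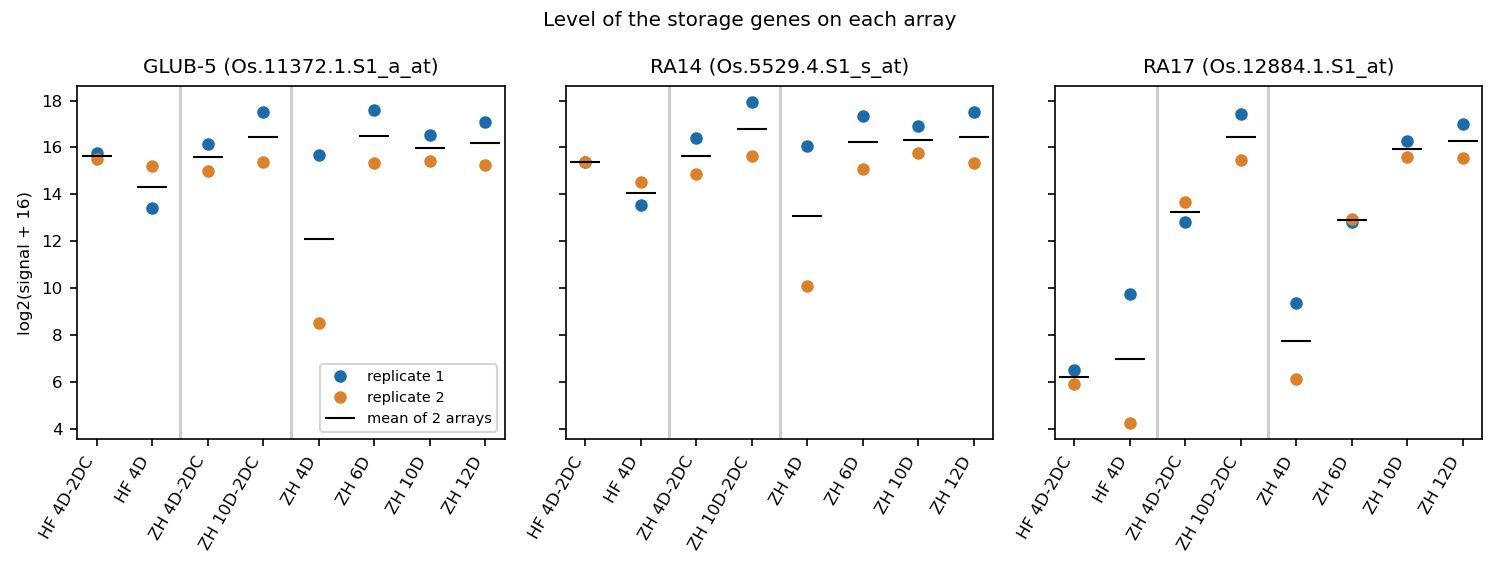
Level of the probe set with the highest mean of GLUB-5, RA14 and RA17 on each of the 16 arrays. The vertical axis is log2(signal + 16), the horizontal axis gives the condition, coloured points are the arrays of replicates 1 and 2 and black bars are the means of 2 arrays. GLUB-5 and RA14 lie above 13 except on replicate 2 of ZH 4D, whereas RA17 lies below 10 in both HF conditions and in ZH 4D.

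RA14 was read by 3 bright probe sets and 1 dim one, which are called here the s set, the first and the second x set and the dim set. The s set had a signal of 43020 and 42539 in HF 4D-2DC seeds, against 12066 and 23245 in HF 4D seeds. It had 86458 and 30009 in ZH 4D-2DC seeds and 250424 and 51031 in ZH 10D-2DC seeds. At 4, 6, 10 and 12 DAF in untreated ZH seeds it had 68371 and 1069, 166113 and 34659, 121879 and 55336, and 185132 and 41723. As for GLUB-5, replicate 2 of ZH 4D was the low array, and the arrays of HF 4D-2DC did not overlap those of HF 4D. The mean level was highest in ZH 10D-2DC (16.79 ± 1.62, SD, n = 2) and lowest in ZH 4D (13.07 ± 4.23, SD, n = 2), and only HF 4D-2DC and HF 4D, the sixth and the seventh of the order, were neighbours whose arrays did not overlap.

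The probe sets of RA14 differed in ZH seeds at 4 DAF. The first x set had a signal of 3942 and 576 in ZH 4D seeds, and the second x set had 3995 and 259, so that replicate 1 of ZH 4D was low in both x sets, unlike in the s set. In Affymetrix naming the letter s marks probes that match several transcripts and the letter x marks sets in which some probes may cross-hybridize. The seed allergenic genes form a family of close copies, so that the levels of single members are uncertain. The x sets followed one another closely over the conditions (r = 0.995 in replicate 1 and 0.9998 in replicate 2), and each followed the s set with r of 0.840 to 0.880 in replicate 1 and 0.997 in replicate 2. The dim set spanned 49.1 to 15342 and was highest in ZH 6D seeds, at 15342 and 2102, and it followed the s set with r = 0.627 and 0.870.

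RA17 had a different order of conditions. Its brighter probe set had a signal of 75.7 and 43.8 in HF 4D-2DC seeds, against 833 and 2.66 in HF 4D seeds. In ZH 4D-2DC seeds it had 7121 and 12895, and in ZH 10D-2DC seeds 174535 and 44897. At 4, 6, 10 and 12 DAF in untreated ZH seeds it had 635 and 53.8, 7219 and 7939, 78124 and 48740, and 131866 and 47731. Both values in HF 4D-2DC seeds lay below the median signal of the same arrays, which was 85.9 and 49.8. The mean level was 6.21 ± 0.44 in HF 4D-2DC, 6.98 ± 3.89 in HF 4D and 7.74 ± 2.28 in ZH 4D (SD, n = 2 each), and these 3 conditions overlapped. ZH 6D (12.89 ± 0.10) and ZH 4D-2DC (13.23 ± 0.60) formed the next step of the order, and ZH 10D (15.91 ± 0.48), ZH 12D (16.28 ± 1.04) and ZH 10D-2DC (16.43 ± 1.38) the highest (SD, n = 2 each). Arrays overlapped within each step, and the arrays on either side of each gap did not overlap. The gaps between neighbouring means were 5.15 between ZH 6D and ZH 4D and 2.68 between ZH 10D and ZH 4D-2DC.

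The other probe set of RA17 was dim, with signals of 25.3 to 1037. It followed the brighter set over the 8 conditions (r = 0.940 in replicate 1 and 0.955 in replicate 2, a description over conditions that share their arrays), was lowest in HF 4D-2DC and highest in ZH 10D, and had smaller differences. The brighter set of RA17 followed GLUB-5 less closely than the s set of RA14 did. Its r was 0.638 and 0.414 in replicates 1 and 2, against 0.975 and 0.984 for the s set. In replicate 1 the r with GLUB-5 was 0.824 and 0.856 for the x sets of RA14 and 0.689 for the dim set, nearer to that of RA17. In replicate 2 those sets had 0.974, 0.973 and 0.881. The x sets also followed the brighter set of RA17, with 0.848 and 0.865 in replicate 1 and 0.574 and 0.583 in replicate 2.

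With age in untreated ZH seeds, the brighter set of RA17 had a larger difference in ZH 12D minus ZH 4D than GLUB-5 or any set of RA14. Its level was 16.28 in ZH 12D and 7.74 in ZH 4D, a log2 difference of 8.54 (standard error 1.47), with 7.66 in replicate 1 and 9.42 in replicate 2. No fold is given, because the ZH 4D values lay low (635 and 53.8) and those of ZH 12D at 71.2% and 92.0% of the highest signal of their arrays. In ZH 10D minus ZH 4D the difference was 8.18 (standard error 1.47) and in ZH 6D minus ZH 4D it was 5.15 (standard error 1.47), and in all 3 comparisons the arrays did not overlap. In ZH 12D minus ZH 10D RA17 had a difference of 0.36 (0.76 in replicate 1 and -0.03 in replicate 2). The dim set of RA17 had 1.01 in ZH 12D minus ZH 4D, with 0.91 in replicate 1 and 1.12 in replicate 2. In ZH 6D minus ZH 4D it had 0.52, with 0.14 and 0.90, and in both comparisons its arrays overlapped.

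GLUB-5 had reached its high level at 6 DAF. Its log2 difference in ZH 6D minus ZH 4D was 4.39 (standard error 1.74), with 1.94 in replicate 1 and 6.83 in replicate 2, and in ZH 12D minus ZH 4D it was 4.09 (standard error 1.74), with 1.42 and 6.76. RA14 had 3.14 (standard error 1.56) in ZH 6D minus ZH 4D and 3.35 (standard error 1.56) in ZH 12D minus ZH 4D. For both genes the size rested on the ZH 4D arrays. The difference in ZH 12D minus ZH 4D was 7.67 for GLUB-5 and 6.34 for RA14 without replicate 1 of ZH 4D, and 0.51 and 0.36 without replicate 2. These runs set both ZH 12D arrays against 1 ZH 4D array. In the other bright sets of RA14, in which both ZH 4D arrays were low, it was 5.70 (standard error 1.05) for the first x set and 6.16 (standard error 1.20) for the second, and the arrays did not overlap. The dim set of RA14 had 0.01.

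In ZH 12D minus ZH 4D, 3 of the 7 probe sets were called, all higher, at a limma p under 0.05 after Benjamini-Hochberg adjustment, where 0.725% of all 34331 tested were called and 0.574% were called higher. They were the brighter set of RA17 and both x sets of RA14. In ZH 10D minus ZH 4D, 1 of 7 was called, the brighter set of RA17, which was higher, where 0.230% of all were called and 0.201% were called higher. With replicate number as a block, 3 of 7 were called in ZH 10D minus ZH 4D, where 1.12% of all were, and 3 of 7 in ZH 12D minus ZH 4D, where 2.22% were. When each array was left out in turn, the 7 sets had 0 to 4 calls in either comparison, with at least 1 in 13 of 16 runs for ZH 12D minus ZH 4D and in 3 of 16 for ZH 10D minus ZH 4D. Without replicate 1 of ZH 4D 4 of 7 were called in either comparison, and 0 of 7 without replicate 2. Without either array of ZH 12D 0 of 7 were called in ZH 12D minus ZH 4D. With a pseudocount of 1, 0 of 7 were called in both comparisons, and with no filter on low values 2 of 7 were called in ZH 12D minus ZH 4D and 0 of 7 in ZH 10D minus ZH 4D. In ZH 6D minus ZH 4D and ZH 12D minus ZH 10D, 0 of 7 were called, where 0% of all were. At a looser threshold (p under 0.05 without adjustment, and a change of more than 2-fold), 5 of 7 were higher in ZH 6D minus ZH 4D, where 1.24% of all were, and 0 of 7 changed in ZH 12D minus ZH 10D, where 0.845% of all did. Because the genes were chosen on these values, nothing is read from these counts.

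The low temperature question in ZH was whether treated seeds differ from untreated seeds of the same age. In ZH 4D-2DC minus ZH 6D, GLUB-5 had a log2 difference of -0.89 (standard error 1.74), with -1.45 in replicate 1 and -0.33 in replicate 2. RA14 had -0.57 (standard error 1.56), with -0.94 and -0.21, and 0.08 after quantile normalization. RA17 had 0.34 (standard error 1.47), with -0.02 and 0.70. Arrays of the 2 conditions overlapped for all 7 probe sets. Leaving out replicate 1 of ZH 6D gave 0.25 for GLUB-5 and 0.56 for RA14, of the opposite sign, and leaving out replicate 2 gave -2.03 and -1.71. These runs set both ZH 4D-2DC arrays against 1 ZH 6D array, so they also hold the difference between replicate numbers. Within both replicates the 2 genes were below 0.

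In ZH 10D-2DC minus ZH 12D the brightest probe set of each gene lay closer to 0. GLUB-5 had 0.27 (standard error 1.74), with 0.41 in replicate 1 and 0.13 in replicate 2. RA14 had 0.36 (standard error 1.56), with 0.44 and 0.29, and RA17 had 0.16 (standard error 1.47), with 0.40 and -0.09, and -0.21 after quantile normalization. Arrays overlapped for all sets but the dim set of RA14, whose signals were 2499 and 1429 in ZH 10D-2DC seeds, against 444 and 860 in ZH 12D seeds, a difference of 1.59 (standard error 1.41). Without replicate 1 of ZH 10D-2DC the differences were -0.78 for GLUB-5, -0.78 for RA14 and -0.82 for RA17, and without replicate 2 they were 1.32, 1.51 and 1.14. These runs set 1 ZH 10D-2DC array against both ZH 12D arrays, so they too hold the difference between replicate numbers. In both comparisons 0 of 7 probe sets were called, where 0% of all were, with or without the block. At the looser threshold 0 of 7 were past it in either, where 1.21% of all were in ZH 4D-2DC minus ZH 6D and 2.51% in ZH 10D-2DC minus ZH 12D. Set against the start of the treatment, in ZH 10D-2DC minus ZH 10D, GLUB-5 had 0.46, RA14 0.46 and RA17 0.52 (1.16 in replicate 1 and -0.12 in replicate 2), and 0 of 7 were called or past the looser threshold, where 0% and 1.76% of all were.

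**Figure D2:**
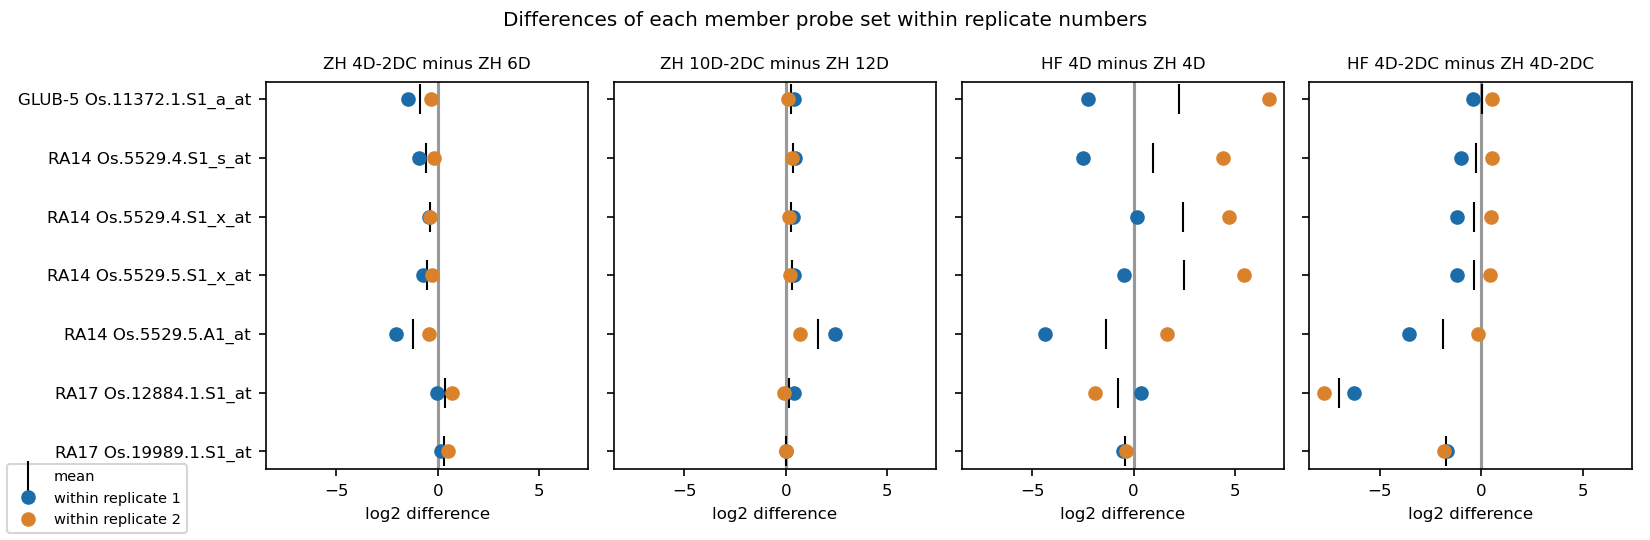
Log2 differences of the 7 probe sets of GLUB-5, RA14 and RA17 in 4 comparisons. The horizontal axis is the difference on the log2(signal + 16) scale, black bars are means and coloured points are the differences within replicates 1 and 2. All points of both low temperature panels of ZH seeds lie between -2.05 and 2.45, HF 4D minus ZH 4D has replicates on opposite sides of 0 for GLUB-5, and the brighter set of RA17 lies at -6.28 and -7.75 in HF 4D-2DC minus ZH 4D-2DC.

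Set against ZH seeds at the start of the treatment, all 3 genes were higher in the mean after 2 days at low temperature. RA17 had a log2 difference in ZH 4D-2DC minus ZH 4D of 5.49 (standard error 1.47), with 3.45 in replicate 1 and 7.53 in replicate 2, and its arrays did not overlap. The untreated seeds of the same interval had 5.15 in ZH 6D minus ZH 4D. GLUB-5 had 3.50 (standard error 1.74), with 0.50 in replicate 1 and 6.50 in replicate 2. It had 7.08 without replicate 1 of ZH 4D and -0.08 without replicate 2, runs in which both treated arrays face 1 ZH 4D array. The s set of RA14 had 2.56 (standard error 1.56), with 0.34 and 4.79 within replicates, and 5.55 and -0.42 in the same 2 runs. The first x set of RA14 had 4.42 (standard error 1.05), with 3.40 and 5.43. The second x set had 4.64 (standard error 1.20), with 2.89 and 6.39, and the arrays of neither x set overlapped. Treatment and age cannot be told apart in this comparison, which shares its ZH 4D arrays with the comparisons of age. Of the 7 probe sets 0 were called, where 0% of all were, and 3 were higher at the looser threshold, where 0.967% of all were. Those 3 were the brighter set of RA17 and both x sets of RA14.

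Between cultivars after low temperature, the brighter set of RA17 had a lower signal in HF seeds on all arrays. It averaged 6.21 in HF 4D-2DC and 13.23 in ZH 4D-2DC. The log2 difference was -7.02 (standard error 1.47, or 1.17 with the block), and both HF 4D-2DC arrays lay below both ZH 4D-2DC arrays. Because the HF 4D-2DC values lay below the median of their arrays, the size depends on the pseudocount and no fold is given. The difference was -6.30 with a pseudocount of 64 and -7.35 with a pseudocount of 1. Whether the RA17 probes match the gene equally well in both cultivars was not tested. The dim set of RA17 had -1.77 (standard error 1.45, or 0.48 with the block), with -1.70 in replicate 1 and -1.84 in replicate 2. Its arrays overlapped across replicate numbers.

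GLUB-5 and the bright sets of RA14 overlapped between the cultivars in the same seeds. GLUB-5 had 0.05 (standard error 1.74), with -0.41 in replicate 1 and 0.50 in replicate 2. RA14 had -0.25 (standard error 1.56), with -1.01 and 0.50, and 0.03 after median centring. The dim set of RA14 had -1.87 (standard error 1.41), with -3.59 and -0.16, and its arrays did not overlap. Of the 7 probe sets 0 were called, with or without the block, where 0.0117% and 0.0524% of all were. At the looser threshold 1 of 7 was lower, the brighter set of RA17, where 0.990% of all were.

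Before treatment the arrays of the cultivars overlapped for GLUB-5 and for 3 of the 4 sets of RA14. In HF 4D minus ZH 4D, GLUB-5 had 2.22 (standard error 1.74), but -2.25 in replicate 1 and 6.70 in replicate 2. The s set of RA14 had 0.96 (standard error 1.56), with -2.50 and 4.42. The first x set of RA14 had signals of 4468 and 15180 in HF 4D seeds, against 3942 and 576 in ZH 4D seeds, which did not overlap, a difference of 2.43 (standard error 1.05), with 0.18 and 4.68. Replicate 1 of HF 4D was the lowest HF array for both GLUB-5 and the s set, but their values turned on the ZH 4D arrays. Without replicate 2 of ZH 4D the differences were -1.36 for GLUB-5 and -2.03 for RA14, and without replicate 1 they were 5.81 and 3.95. RA17 had -0.76 (standard error 1.47), with 0.38 in replicate 1 and -1.90 in replicate 2, and it was low in both cultivars at 4 DAF. Without replicate 1 of HF 4D it had -3.51, and without replicate 2 it had 1.99. Of the 7 probe sets 0 were called, where 0.00291% of all were, or 0.0146% with the block. At the looser threshold 1 of 7 was higher, the first x set of RA14, where 0.903% of all were.

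In HF the seeds taken after low temperature had more of GLUB-5 and RA14 in both replicates and not of RA17. GLUB-5 had a log2 difference in HF 4D-2DC minus HF 4D of 1.32 (standard error 1.74), with 2.34 in replicate 1 and 0.30 in replicate 2, and RA14 had 1.35 (standard error 1.56), with 1.83 and 0.87. Arrays of the 2 conditions did not overlap for either. RA17 had -0.77 (standard error 1.47), with -3.21 and 1.68, and 0.09 with a pseudocount of 1. Without replicate 1 of HF 4D it had 1.99, and without replicate 2 it had -3.52. Of the 7 probe sets 0 were called and 0 were past the looser threshold, where 0% and 2.29% of all were. The difference between the cultivars in this contrast, (HF 4D-2DC minus HF 4D) minus (ZH 4D-2DC minus ZH 4D), was -6.26 (standard error 2.08) for RA17, -2.18 (standard error 2.46) for GLUB-5 and -1.21 (standard error 2.21) for the s set of RA14. The first and second x sets of RA14 had -2.80 (standard error 1.48) and -2.86 (standard error 1.69), and its dim set had -0.51 (standard error 1.99). The unequal ZH 4D arrays of GLUB-5 and the s set enter these values. In that contrast 0 of 7 were called, where 0% of all were, and 1 of 7, that of RA17, was lower at the looser threshold, where 0.565% of all were.

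Other storage protein genes were read from a list of 5 glutelins, which encode further subunits of the same protein class, and from the prolamin gene PROLM25 and the albumin gene RA5. In ZH 12D minus ZH 4D, 5 of 5 glutelins were above 0, with a median log2 difference of 5.07, against -0.03 over all probe sets tested, and 0 were called, where 0.725% of all were (1 with the block, where 2.22% of all were). GLUA-2 had signals of 132583 and 42200 in ZH 12D seeds, against 27689 and 163 in ZH 4D seeds, where replicate 2 of ZH 4D was again the low array. PROLM25 had 173329 and 40505 in ZH 12D seeds, against 4187 and 3.04 in ZH 4D seeds. RA5, of the same family as RA14 and RA17, had 130613 and 35689 in ZH 12D seeds, against 4851 and 4464 in ZH 4D seeds, so that it was low on both ZH 4D arrays. GLUB-4, which lies next to GLUB-5, had signals of at most 397. It is named beside the 4 brightest glutelins because its place next to GLUB-5 was known.

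**Figure D3:**
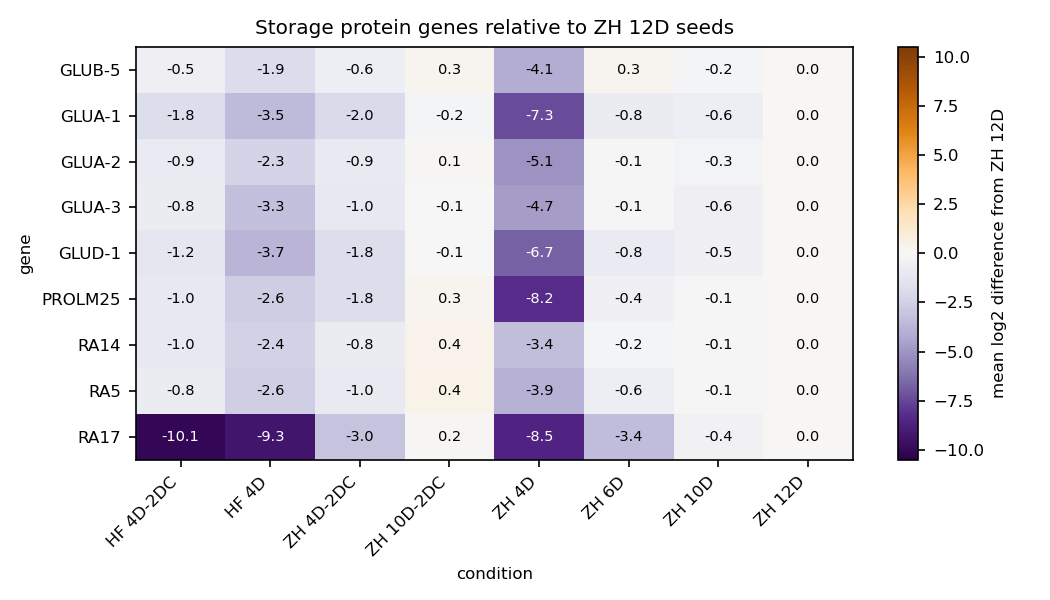
Mean log2 difference from ZH 12D seeds of 9 storage protein genes (rows) in the 8 conditions (columns), 2 arrays each, with the value printed in each cell. RA17 is at -10.07 in HF 4D-2DC and -9.30 in HF 4D, while RA14 is at -1.04 and -2.39 and RA5 at -0.76 and -2.59.

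After low temperature the other glutelins lay close between the cultivars, with a median log2 difference of 0.26, against -0.10 over all probe sets tested. In the mean 5 of 5 were above 0, but in each of them the replicates lay on opposite sides of 0. GLUA-2 had 38938 in HF 4D-2DC against 62912 in ZH 4D-2DC in replicate 1, and 42248 against 24941 in replicate 2. RA5 had 39811 and 41007 in HF 4D-2DC seeds, against 39706 and 30536 in ZH 4D-2DC seeds, a log2 difference of 0.21. PROLM25 had 35057 and 48540 in HF 4D-2DC seeds, against 31517 and 19088 in ZH 4D-2DC seeds, a log2 difference of 0.75. None of these sets showed a difference of the size of that of RA17. In ZH 4D-2DC minus ZH 6D, 4 of 5 glutelins were below 0 (median -0.88, against 0.04 over all), and PROLM25 had -1.36 and RA5 -0.34. In ZH 10D-2DC minus ZH 12D, 2 of 5 glutelins were above 0 and 3 below (median -0.07, against -0.02 over all). In each of these 3 comparisons 0 of 5 glutelins were called, where 0.0117% of all were between the treated cultivars and 0% in the other two.

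Genes that act on storage proteins after transcription were not called. Of 17 genes for folding and vacuolar sorting, 0 were called in any comparison, and their median in ZH 12D minus ZH 4D was 0.18, against -0.03 over all. PDIL1-1, a protein disulfide isomerase that folds glutelin precursors, had 0.00 in ZH 12D minus ZH 4D, and between the treated cultivars it had -0.01. BIP1, a chaperone of the endoplasmic reticulum, had 0.34 and -0.11. VPE1, the enzyme that cleaves the precursors, had 1.83 and 0.32, above 0 in both replicates of either comparison. PDIL1-1 and BIP1 had replicates on opposite sides of 0 in both comparisons, so that their small means do not show unchanged levels. PDIL1-1 had signals of 77833 and 33213 in ZH 12D seeds, against 121444 and 21191 in ZH 4D seeds. It had 66452 and 45748 in HF 4D-2DC seeds, against 91269 and 33926 in ZH 4D-2DC seeds. NF-YB1, an endosperm transcription factor subunit and the only regulator on the list with a probe set matched by name, had signals of 14733 and 26430 in ZH 12D seeds, against 2094 and 1704 in ZH 4D seeds, a log2 difference of 3.37 that was not called. It had 4842 and 20330 in HF 4D-2DC seeds, against 6718 and 7290 in ZH 4D-2DC seeds, a difference of 0.50.

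Markers of seed tissues are given beside the members, and 0 of the starch synthesis and photosynthesis genes were called in any comparison. Summed signal of 5 starch synthesis genes of the endosperm was 31658 and 92100 in HF 4D seeds, against 306000 and 39826 in ZH 4D seeds, so that replicate 1 of HF 4D and replicate 2 of ZH 4D, on which GLUB-5 and RA14 were low, were also the lowest of their replicate number for starch synthesis. Over the 16 arrays that sum spanned 31658 to 409676. Summed signal of 4 photosynthesis genes, which are active in the green maternal layers, was 79322 and 60176 in HF 4D seeds, against 33250 and 32789 in ZH 4D seeds, and 19343 and 43891 in HF 4D-2DC seeds, against 9515 and 28936 in ZH 4D-2DC seeds. Of those 4 genes 3 were tested, and 3 of 3 were above 0 in both comparisons (medians 1.66 and 0.80), while in ZH 12D minus ZH 4D 3 of 3 were below 0 (median -1.12). Their part in the differences of the 3 genes was not tested.

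Embryo and aleurone genes rose with RA17 at the late stages. Their summed signal over 6 genes was 1066 and 774 at 4 DAF, 10970 and 9196 at 6 DAF, 89388 and 101689 at 10 DAF and 176498 and 98212 at 12 DAF in untreated ZH seeds. In ZH 12D minus ZH 4D, 5 of 6 were called and higher, where 0.574% of all were (EMP1, LEA3, RAB21, RAB16B and RAB16C, which encode late embryogenesis abundant proteins), and RAB16D had 2.36 (limma adjusted p = 0.647). In the HF 4D-2DC seeds, in which RA17 was near its lowest, the sum was 5085 and 43323, against 6216 and 19071 in ZH 4D-2DC seeds, and 0 of 6 were called, where 0.0117% of all were. The part of embryo and aleurone in the level of RA17 was not tested.

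The genes most like each member were ranked among 2252 named genes by the lower of the Pearson r of replicate 1 and that of replicate 2, each over the 8 conditions. For GLUB-5 they were GLUA-2 (0.986), GLUA-3 (0.979), RA14 (0.975), the calcium-dependent protein kinase gene CPK23 (0.961) and the starch branching enzyme gene SBE1 (0.951). For RA14 they were GLUB-5 (0.975), GLUA-2 (0.974), the tonoplast aquaporin gene OsTIP3 (0.965), GLUA-3 (0.952) and CPK23 (0.947). For RA17 none was a storage protein gene. They were the gibberellin receptor gene gid1 (0.890), the protein phosphatase gene OsPP2C66 (0.853), the glutaredoxin gene GRXC7 (0.847), the heat stress transcription factor gene HSF24 (0.843) and the bHLH gene BHLH063 (0.834). The points of each correlation share their arrays and scaling, and no p is given.

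In the RefSeq gene order RA17, RA14 and RA16 lie next to one another on chromosome 7, and 3 genes separate RA16 from RA5. RA16 had no probe set of its own here. GLUB-5 and GLUB-4 lie next to each other on chromosome 2. The adjacent genes RA17 and RA14 thus had log2 differences of -7.02 and -0.25 between the treated cultivars, while the adjacent genes GLUB-5 and GLUB-4 had 0.05 and 0.38. GLUB-4 was dim, with signals of 111 and 25.4 in HF 4D-2DC seeds, against 28.1 and 54.1 in ZH 4D-2DC seeds. Its replicates differed in opposite directions, so that no likeness of GLUB-5 and GLUB-4 is read from these values.

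Bright member values lay close to the top of each array's range. The s set of RA14 was the brightest probe set on replicate 1 of ZH 12D, and it was at 93.4% to 97.5% of the highest signal in ZH 10D-2DC and ZH 10D seeds. GLUB-5 was at 60.5% to 92.1% on all arrays but those of HF 4D replicate 1 (4.68%) and ZH 4D (24.5% and 0.97%). RA17 was at 62.2% to 92.0% in ZH 10D, ZH 12D and ZH 10D-2DC seeds and at 0.36% or below in HF and ZH 4D seeds. How far the top of the range limits the differences between such conditions, as in ZH 10D-2DC minus ZH 12D, was not tested.

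**Figure D4:**
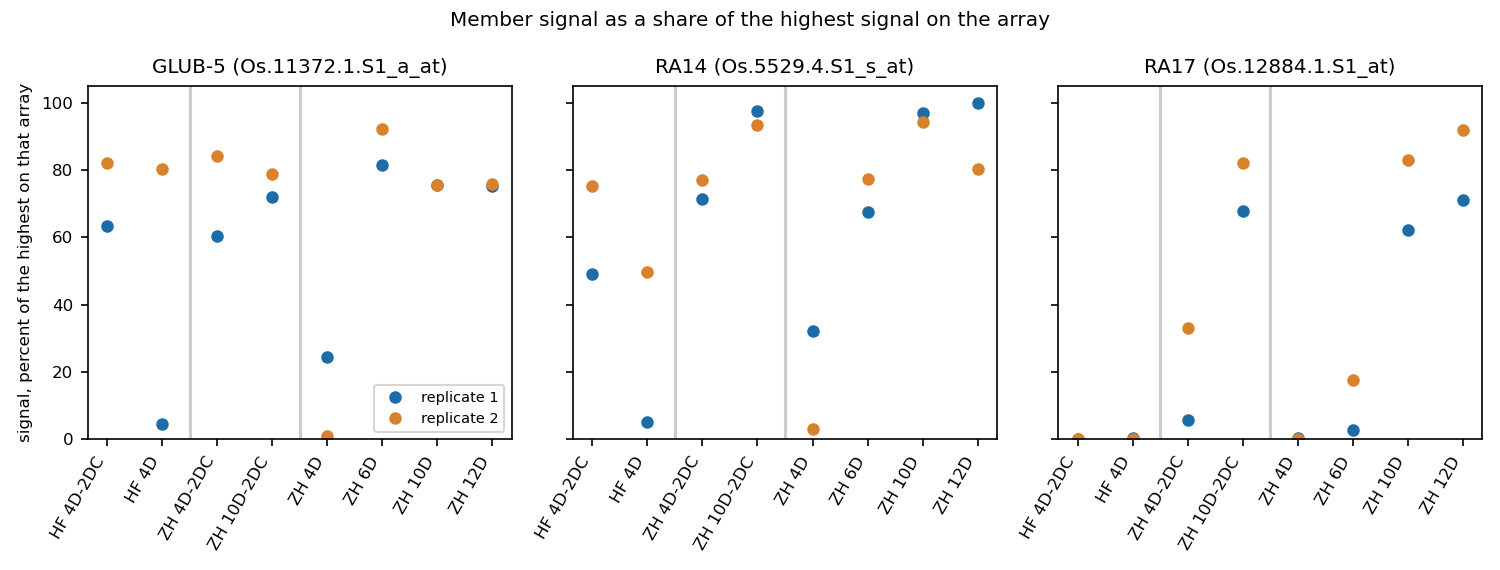
Signal of the probe set with the highest mean of GLUB-5, RA14 and RA17 as a percent of the highest signal on the same array. The vertical axis starts at 0, the horizontal axis gives the condition and coloured points are the arrays of replicates 1 and 2. RA17 is at 5.87% and 33.1% in ZH 4D-2DC, against 62.2% or more in the late ZH seeds, and at 0.36% or below in HF.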

How the data were processed

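Seed RNA of 8 conditions was hybridized to 16 Affymetrix rice genome arrays. The deposited values are linear intensities that the authors made with MAS5 per the labels. Every array had a 2% trimmed mean of 500. The methods of the study name GC-RMA instead. No detection calls were used. After removal of 187 controls, 34331 of 57381 probe sets, those whose mean exceeded the 40th percentile, were fitted as log2(signal + 16) with limma 3.58.1 in R 4.3.3, with 1 coefficient per condition and 8 residual degrees of freedom. Tests were two-sided, and p was adjusted by Benjamini-Hochberg over all tested probe sets. The looser threshold follows the one the study's methods give for low temperature genes, which name a p without saying whether it was adjusted. It was applied here to unadjusted p and also to the comparisons of age and cultivar. The fit was tested on simulated data. Standard errors are those of this fit unless the block is named.

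Of all probe sets 22436 had 1 gene, 95 several and 34850 none in the platform annotation. Names were updated by gene ID through RefSeq genes (assembly ASM3414082v1), which gave the order of genes on a chromosome and of which no coordinate or sequence was used otherwise. The members and lists were chosen with earlier results of these data known, and the list genes after the annotation had been seen. 1 gene named GLB was taken off a list after its values had been printed, because its symbol can denote another protein. In each list up to 4 genes of the highest mean were named, with 1 probe set per gene, and for each member the 5 most like genes. Other genes were named where a count was 5 or fewer.

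The replicate numbers were taken to pair the arrays. In all 28 pairs of conditions the deviations of same-numbered arrays correlated by over 0.1 (r of 0.216 to 0.638, median 0.416). Replicate number as a block, quantile normalization, median centring, pseudocounts of 1 and 64, other filters, each array left out and each probe set on its own were tried as alternatives. Leaving out an array breaks the pairing by replicate number in its condition.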

Additional observations from a re-analysis of the deposited data

Results flagged for a closer look

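In several probe sets the 2 replicates moved one way in one contrast and both moved the opposite way in another. Low temperature from 10 DAF (ZH 10D-2DC minus ZH 12D) against low temperature from 4 DAF (ZH 4D-2DC minus ZH 6D) gave a difference of 1.16 on the log2 scale for GLUB-5 (0.41 and 0.13 in replicates 1 and 2 against -1.45 and -0.33). For RA14 the same difference was 0.94 in the s set, 0.69 in the first x set, 0.84 in the second x set and 2.83 in the dim set, and all 4 sets were above 0 in both replicates from 10 DAF and below 0 in both from 4 DAF. The standard error for GLUB-5 was 2.46 and those for RA14 were 1.48 to 2.21. In the limma fit of that contrast 0 of 34331 probe sets were called, these sets included, with or without the block. The genes were chosen on these arrays.

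In the dim probe set of RA17, HF 4D-2DC minus HF 4D was below 0 in both replicates (-0.92 and -0.06). ZH 4D-2DC minus ZH 4D was above 0 in both (0.28 and 1.39), a difference of -1.33 (standard error 2.06, or 0.68 with the block). In the limma fit of that contrast too 0 of 34331 probe sets were called, with or without the block. ZH 12D minus ZH 10D was also below 0 in both (-0.46 and -0.61), against 0.14 and 0.90 in ZH 6D minus ZH 4D, a difference of -1.06. This last difference was not tested.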

How the results depend on the processing

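Counts of called probe sets over the whole array moved with the processing, and the value as reported is given first. HF 4D minus ZH 4D had 1, and 5 with the replicate block, 8 with quantile normalization, 10 with both, 2 with median centring, 6 with a pseudocount of 64 and 2 with no filter. HF 4D-2DC minus ZH 4D-2DC had 4, and 18 with the block, 13 with quantile normalization and the block, 2 with median centring, 12 with a pseudocount of 64, 2 with a filter at the 60th percentile and 1 with no filter. ZH 10D minus ZH 4D had 79, and 386 with the block, 296 with quantile normalization and the block, 195 with a pseudocount of 64, 26 with a pseudocount of 1 and 165 with a filter at the 60th percentile. ZH 12D minus ZH 4D had 249, and 762 with the block, 643 with quantile normalization and the block, 136 with a pseudocount of 1 and 151 with no filter. The cause was not tested. Leaving out 1 array gave 0 to 2 (HF 4D minus ZH 4D), 0 to 7 (HF 4D-2DC minus ZH 4D-2DC), 0 to 1 (HF 4D-2DC minus HF 4D), 0 to 3 (ZH 6D minus ZH 4D), 0 to 111 (ZH 10D minus ZH 4D) and 4 to 275 (ZH 12D minus ZH 4D). The lowest value for ZH 12D minus ZH 4D was without replicate 1 of ZH 12D. The block changed no other call of the 7 probe sets than those given with the results. In ZH 10D minus ZH 4D the 7 had 3 calls with quantile normalization, a pseudocount of 64 or the filter at the 60th percentile and 2 with median centring, and in ZH 12D minus ZH 4D they had 3 calls under each of these.

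For the 3 genes the log2 differences without 1 array spanned -1.36 to 5.81 (HF 4D minus ZH 4D), 0.51 to 7.67 (ZH 12D minus ZH 4D) and -0.0845 to 7.08 (ZH 4D-2DC minus ZH 4D) for GLUB-5. For RA14 they spanned -2.03 to 3.95, 0.36 to 6.34 and -0.42 to 5.55 in the same comparisons. For RA17 they spanned -3.51 to 1.99 (HF 4D minus ZH 4D) and -3.52 to 1.99 (HF 4D-2DC minus HF 4D), against -7.45 to -6.59 in HF 4D-2DC minus ZH 4D-2DC. Another probe set of RA14 gave 5.70 (the first x set), 6.16 (the second x set) or 0.0063 (the dim set) in ZH 12D minus ZH 4D, 4.64 (the second x set) in ZH 4D-2DC minus ZH 4D and -1.36 (the dim set) in HF 4D minus ZH 4D. The dim set of RA17 gave 0.84 in ZH 4D-2DC minus ZH 4D, 1.01 in ZH 12D minus ZH 4D and -1.77 in HF 4D-2DC minus ZH 4D-2DC. Dim sets near background and bright sets near the top of the range both limit what these arrays can show.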
